A study of Drosophila melanogaster with 12 samples.

Results

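Among the mRNAs recovered with Brain tumor (BRAT) from early Drosophila embryos, a group of 153 transcript features was strongly enriched with BRAT while staying near the control level with Pumilio (PUM). The values came from RIP-Chip, in which an antibody pulls a protein out of an extract and the RNA that comes with it is measured on a microarray. A ratio is the log2 signal of a RIP minus that of the control RIP of the same replicate number, so a ratio of 2 stands for 4-fold more signal in the RIP. A feature was taken into the group when its mean BRAT ratio over 3 replicates was at least 2, all 3 BRAT ratios lay above 0, and its mean PUM ratio lay strictly between -0.585 and 0.585, that is, less than 1.5-fold from the control in either direction. The 153 members were 2.13% of the 7186 features with values in every column, and these were part of the 17130 rows of the table. Shares and medians over all features refer to these 7186. By the study's methods, the RIP data were limited before testing to transcripts it had defined as expressed in embryos of this age. Whether the rows without values are those left out was not examined. Because the members were chosen by their BRAT and PUM ratios, these ratios are described here without tests.

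The RIPs were the BRAT RIP, made with a synthetic antigen-binding fragment (Fab) against BRAT, and the PUM RIP, made with a Fab against PUM. The control RIP used a synthetic Fab chosen as a negative control. All groups came from embryos of the w1118 strain collected 0 to 3 h after egg-laying and kept at one temperature, with no treatment or transgene, so each extract mixed the cells and stages of whole embryos of that window. Each RIP was done in 3 biological replicates, giving 9 RNA preparations. The control preparations appear in 2 versions, normalized with the BRAT RIPs (BRAT set) or with the PUM RIPs (PUM set), which makes 12 columns in 4 groups of 3.

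BRAT is an RNA-binding protein of the TRIM-NHL family whose NHL domain contacts single-stranded RNA directly, and PUM is a founding member of the PUF family, whose repeats each read a base of the target. Both repress maternally supplied mRNAs, by hindering translation and by promoting decay, and both act with Nanos on the hunchback mRNA in the posterior of the embryo. During the first hours of development the embryo runs on mRNAs loaded in the ovary, many of which are removed as zygotic transcription begins.

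The medians of the log2 signal ran from 11.59 to 11.65 over the BRAT set and from 11.83 to 11.86 over the PUM set, as the normalization within each set makes them alike. Across all features the PUM ratios of replicates 1 and 2 correlated at r of 0.63, and those of replicate 3 with them at 0.48 and 0.53, where the BRAT ratios correlated at 0.77 to 0.80. Values of the same control preparation in both sets correlated at r of 0.993 to 0.994 across the 7186 features, so the BRAT and PUM ratios share their controls. Per the labels, replicates 1 and 2 of every group carried Cy3 and replicate 3 carried Cy5. The precision of each value is limited by the 3 replicates of a group. All features with values carry FlyBase transcript identifiers, of which 37 of 7186 and 0 of the 153 members matched the RefSeq gene table used here. Members are therefore given by identifier, without gene names or roles, and neither markers of embryonic cell types nor the brat mRNA itself were examined.

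The BRAT ratios of the members were bunched toward the threshold. The mean ratio ranged from 2.00 to 4.43, with a median of 2.35, or 5.09-fold, and quartiles of 2.13 and 2.73. Of the 153 members, 90 had a mean ratio below 2.5, 43 lay between 2.5 and 3, 10 between 3 and 3.5, 9 between 3.5 and 4, and 1 above 4. The median ratio over all 7186 features was -0.15. In the fit across all features, all 153 members passed as higher in the BRAT RIP (limma, adjusted p under 0.05 and 1.5-fold or more), as did 19.1% of all features. The rule used this contrast, so nothing is read from the difference. Signals in the BRAT RIP lay above all 3 control signals for 152 members, and for 19.8% of all features. All 3 BRAT ratios reached 2 in 88 members, and 2 members had a ratio below 1 in a single replicate.

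**Figure D1:**
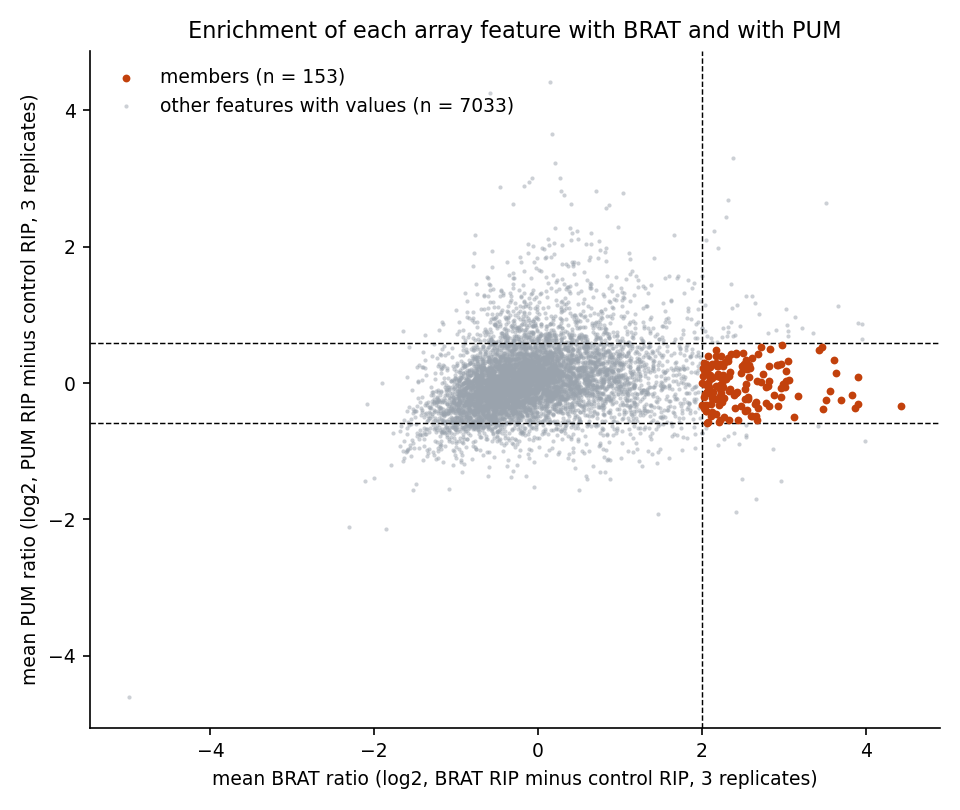
Mean PUM ratio (vertical) against mean BRAT ratio (horizontal), both log2 means of 3 replicates, for the 153 members (orange) and the 7033 other features with values (grey); dashed lines are the limits of the rule. Members thin out quickly to the right of the BRAT limit of 2, and 1 of them lies beyond 4.

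The strongest member was FBtr0078699. Its log2 signals were 14.17, 13.66 and 13.81 in the BRAT RIP, against 9.69, 9.45 and 9.21 in the control RIP. The BRAT ratios lay between 4.21 and 4.60 and averaged 4.43 ± 0.20 (SD, n = 3), or 21.6-fold. In the PUM RIP its signals were 9.22, 8.92 and 9.03, against 9.67, 9.22 and 9.29 in the control RIP of the PUM set, a mean PUM ratio of -0.33 ± 0.10 (SD, n = 3). The BRAT RIP thus held this feature far above every other column, and each PUM RIP signal was lower than the control of its own replicate number.

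FBtr0088453 and FBtr0082703 followed at close to 15-fold. FBtr0088453 had BRAT RIP signals of 13.99, 13.73 and 13.62, against 9.98, 10.19 and 9.44 in the control RIP, a mean ratio of 3.91 ± 0.33 (SD, n = 3). Its PUM RIP signals of 10.13, 10.16 and 9.28 overlapped the control signals of 10.26, 10.47 and 9.76, although each lay below the control of its own replicate number, with PUM ratios of -0.13, -0.31 and -0.47. FBtr0082703 was dimmer throughout. Its BRAT RIP signals were 12.69, 11.50 and 11.83, against 8.81, 7.77 and 7.73 in the control RIP, and the ratios of 3.88, 3.73 and 4.10 averaged 3.90 ± 0.19 (SD, n = 3). Replicate 1 was brightest in both groups, so that the ratios differed less than the signals. The PUM RIP signals of 9.33, 8.50 and 8.67 again overlapped those of the control, 9.42, 8.42 and 8.39.

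The next 7 members by BRAT ratio were FBtr0076007, FBtr0088452, FBtr0076999, FBtr0076936, FBtr0084836, FBtr0112889 and FBtr0075447, with mean ratios from 3.87 down to 3.52. All of them had 3 BRAT RIP signals above all 3 control signals. They differed in how steady the PUM ratio was. In FBtr0076007 the BRAT ratios of 4.07, 3.61 and 3.93 lay close together, while the PUM ratios were 0.46, -0.73 and -0.85. In FBtr0112889, a dim feature with control signals of 9.35, 8.02 and 7.69, the PUM ratios were 0.77, -0.22 and -0.88. The mean PUM ratio was -0.37 in FBtr0076007 and -0.11 in FBtr0112889, and both features had replicates on either side of the control.

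**Figure D2:**
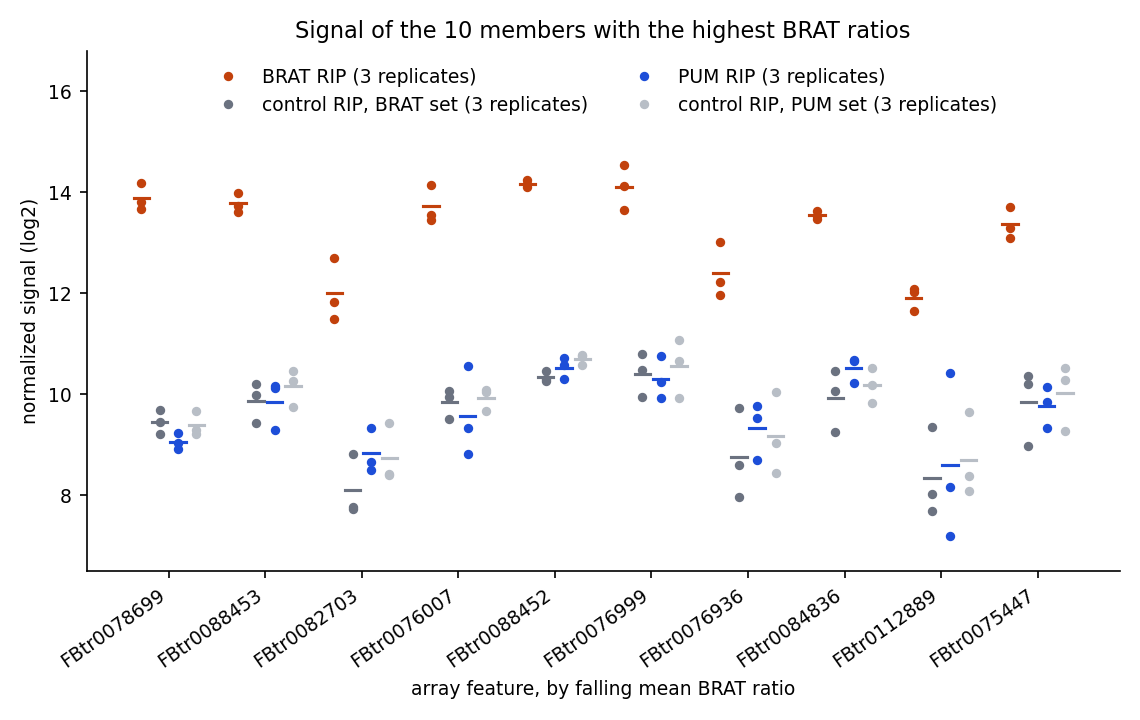
Normalized log2 signal of the 10 members with the highest mean BRAT ratios in the BRAT RIP, the control RIP of the BRAT set, the PUM RIP and the control RIP of the PUM set; points are the 3 replicates and bars their means. The BRAT RIP signals, from 11.50 to 14.54, stand clear of the other 3 groups, which overlap one another.

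Several members had consecutive identifiers. There were 5 such pairs. Whether the features of a pair belong to one gene is not annotated in the sources used here, and features that share sequence are not independent. The strongest pair was FBtr0088452 and FBtr0088453, with mean BRAT ratios of 3.83 and 3.91 and mean PUM ratios of -0.18 and -0.31. FBtr0075154 and FBtr0075155 had BRAT ratios of 2.54 and 2.68 and PUM ratios of 0.34 and 0.43. FBtr0084767 and FBtr0084768 differed most, with BRAT ratios of 2.26 and 2.78. Between the features of a pair, BRAT ratios differed by 0.08 to 0.52. Beside these, 92 members had a neighbouring identifier that held values and was not a member, 119 such features in all. Their median BRAT ratio was -0.26, against -0.15 over all features, and 22 of the 119 (18.5%) were at least 1.5-fold higher in the BRAT RIP, against 19.7% of all features. The 119 leave out the members, while the values over all features include them, which lowers the values of the 119 by construction. Nothing is therefore read from these differences. Of the 119, 4 reached a BRAT ratio of 2.

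The SD of the 3 BRAT ratios had a median of 0.34 in the members and 0.28 over all features. The rule used these ratios, so nothing is read from the difference. The steadiest member was FBtr0073239, with BRAT RIP signals of 13.20, 13.03 and 13.18, control signals of 11.18, 10.97 and 11.18, and ratios of 2.02, 2.06 and 2.00. FBtr0082933 and FBtr0089849 were nearly as steady, with ratios of 2.45, 2.44 and 2.37 in FBtr0082933 and of 2.47, 2.59 and 2.47 in FBtr0089849. In FBtr0089849 the signals themselves moved by over 1 log2 unit, at 12.29, 11.15 and 11.68 with the BRAT Fab, against 9.82, 8.55 and 9.21 with the control Fab.

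In the most variable members 1 replicate stood off from the other two. FBtr0088272 was close to the dim end of the features with values, with BRAT RIP signals of 9.64, 7.91 and 8.84 and control signals of 6.57, 7.07 and 6.07. Its ratios of 3.06, 0.83 and 2.78 averaged 2.22 ± 1.21 (SD, n = 3), and without replicate 2 the mean was 2.92. FBtr0113417 had steady BRAT RIP signals of 12.17, 12.09 and 11.98, against control signals of 9.31, 9.59 and 11.29, so the ratio of replicate 3 was 0.69 where the others were 2.87 and 2.51. It had the highest SD after FBtr0088272 and FBtr0100599, and without replicate 3 its mean ratio was 2.69. The 1 member whose BRAT RIP and control signals overlapped across replicates was FBtr0071519, singled out after its values were seen. Its BRAT RIP signals were 11.34, 9.69 and 12.56, against 8.99, 8.06 and 10.47 in the control RIP, and since both moved together the ratios stayed between 1.63 and 2.35.

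The PUM ratios of the members were spread evenly about 0. The mean PUM ratio had a median of -0.02 and quartiles of -0.25 and 0.24, with 70 members above 0 and 83 below. Over all features the median was 0.01, and 82.0% of them lay within the PUM window of the rule. No member could be called higher in the PUM RIP, since the window ends at the 1.5-fold needed for a call, and 6.96% of all features were called (500 features, and 99 without replicate 1). All 3 PUM RIP signals exceeded all 3 control signals in 2 members, against 12.5% of all features and 5.70% of those in the window. All 3 were lower than the control signals in 11 members (7.19%), against 11.6% of all features and 7.72% of those in the window. A mean ratio inside the window did not imply that every replicate was. In 74 members (48.4%) all 3 PUM ratios lay inside it, against 59.2% of the features in the window. The median SD of the PUM ratios was 0.37 in members and 0.29 over all features, which are not limited to the window. The rule used these ratios, so nothing is read from the difference in SD. Members were also dimmer in the control RIP, and whether this bears on their PUM ratios was not tested.

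A mean PUM ratio of almost exactly 0 came about in different ways. FBtr0084384, a bright member, had PUM RIP signals of 13.25, 12.66 and 12.00, against 13.45, 12.45 and 12.04 in the control RIP, so every replicate was near its control. FBtr0086525 was similar, with PUM ratios of 0.25, -0.15 and -0.14. FBtr0113850 had ratios of 0.50, -0.22 and -0.30, and FBtr0089726 had ratios of 0.48, 0.40 and -0.89. In FBtr0100599 the PUM RIP signals were 11.22, 9.59 and 7.06, against 9.71, 8.44 and 9.75 in the control RIP. Its PUM ratios, above 1 in replicates 1 and 2 and -2.69 in replicate 3, averaged -0.01 ± 2.32 (SD, n = 3), the highest SD of any member, and its BRAT ratios were 3.35, 3.97 and 1.64. The mean near 0 in this feature thus stood for enrichment in replicates 1 and 2 and depletion in replicate 3.

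The PUM ratio of replicate 3 ran lower than the others in the members. The median PUM ratio of the members was 0.12 in replicate 1, 0.10 in replicate 2 and -0.24 in replicate 3, against -0.01, 0.04 and 0.00 over all features. The ratio was below 0 in 41.8%, 36.6% and 71.2% of members in replicates 1, 2 and 3, against 50.7%, 46.7% and 49.9% of all features. In 44 members (28.8%) the ratios of replicates 1 and 2 lay above 0 and that of replicate 3 below, a sequence of signs seen in 9.66% of all features and 11.4% of those in the window. Ratios above 0 in all 3 replicates were found in 20 members (13.1%), against 25.8% of all features, and ratios below 0 in all 3 in 26 members (16.99%), against 24.2%. Within the PUM window these shares were 18.8% and 21.5%.

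The lower values of replicate 3 were on the side of the PUM RIP more than of the control. The median signal of the members was 11.38, 11.20 and 10.75 in the PUM RIP of replicates 1, 2 and 3, against 11.39, 11.12 and 11.04 in the control RIP of the PUM set. The BRAT ratios of the members differed less between replicates, with medians of 2.496, 2.404 and 2.383. Across the 153 members the PUM ratios of replicates 1 and 2 correlated at r of 0.34, while those of replicate 3 correlated with replicates 1 and 2 at r of -0.09 and -0.02. BRAT ratios correlated at r of 0.48 to 0.54 between replicates. These are correlations across features, which are not independent, within a range of ratios limited by the rule. The rule also holds the mean of the 3 PUM ratios near 0, which by itself lowers the correlations between them. The values for PUM are therefore not compared with those over all features.

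The same difference between replicates was present, at smaller size, among all features with moderate BRAT ratios, with no limit on the PUM ratio. Of the 587 features with a mean BRAT ratio from 1 to 2, the median PUM ratio was 0.12, 0.17 and -0.06 in replicates 1, 2 and 3. In the 2173 features from 0 to 1 it was 0.13, 0.15 and 0.11, and in the 4212 below 0 it was -0.12, -0.05 and -0.04. For all 214 features with a mean ratio of 2 or more the medians were 0.17, 0.15 and -0.13. Replicate 3 was also the replicate labeled with Cy5, so that the dye and the preparation cannot be told apart. Without replicate 3 the rule gave 155 members, of which 122 (79.7% of the 153) were the same. Of the 31 that dropped out, 16 had a PUM ratio above the window and 2 one below it, and 9 of the 33 that came in had been below it.

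**Figure D3:**
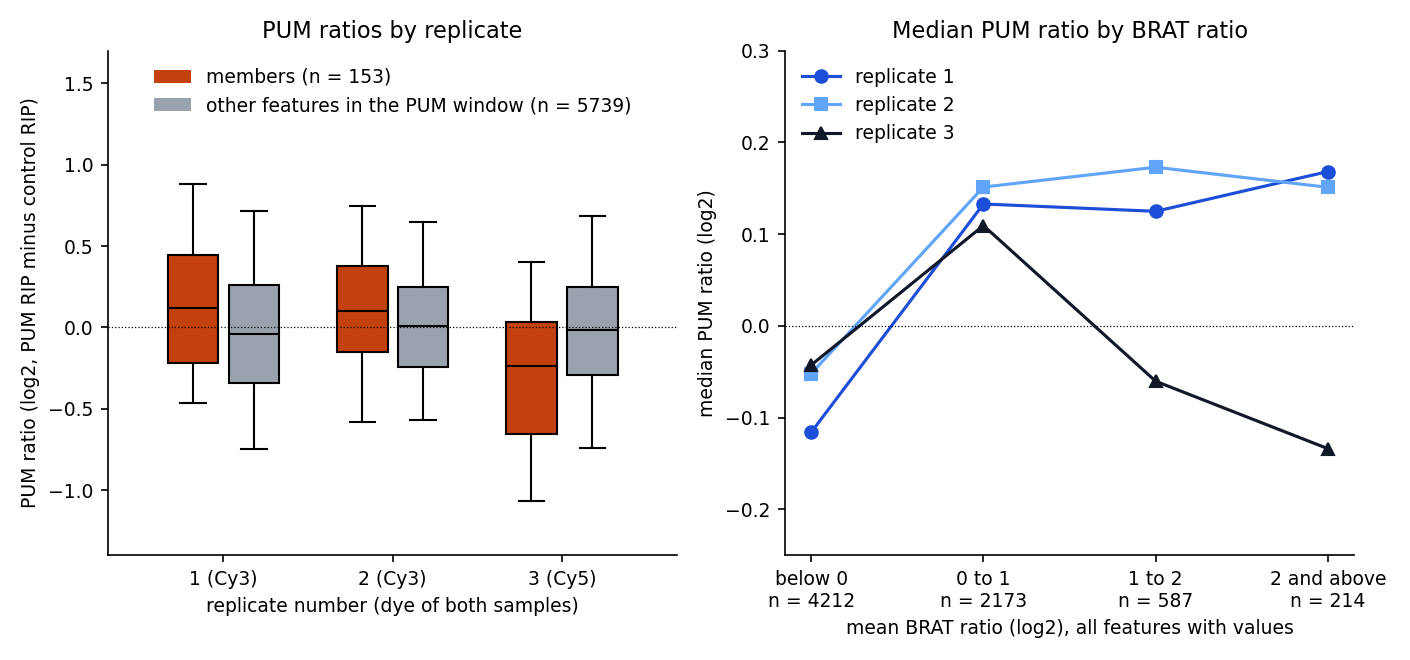
Left, PUM ratios (log2) of the 153 members (orange) and of the 5739 other features in the PUM window (grey) by replicate; boxes show quartiles and median, whiskers the 5th and 95th percentiles. Right, median PUM ratio of each replicate over all features, in steps of the mean BRAT ratio; replicate 3 lies at -0.13 in the highest step, where replicates 1 and 2 lie at 0.17 and 0.15.

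Members ranged widely in signal. Their mean log2 signal in the control RIP of the BRAT set ran from 6.57 to 13.30, with a median of 10.99 and quartiles of 9.87 and 11.71. Over all features the median was 11.64 and the quartiles 10.42 and 12.71. In this control 112 members (73.2%) were in the lower 50% of the features, 48 (31.4%) in the lowest 20%, 4 in the highest 20% and 0 in the highest 10%. In the BRAT RIP the members stood higher, a shift that the rule builds in by asking for a ratio of at least 2. The median signal of the members was 13.52, against 11.58 over all features, 96 members (62.7%) were in the highest 20% and 65 (42.5%) in the highest 10%. The control signal is part of the BRAT ratio, so the control level is tied to the rule. The highest signal in any column was 15.99, which limits the ratio that the very brightest features can reach. Whether this bears on the control level of the members was not tested. Every column is a RIP, so the control signal does not measure how much of a transcript the embryos held. In 12 members the mean BRAT RIP signal was above 15. In the PUM RIP the members were placed as in the control, with 48 in the lowest 20% and 0 in the highest 10%. The PUM window of the rule keeps the PUM RIP signal of a member close to its control, so this placement follows from the rule. Across members the mean BRAT ratio correlated with the control signal at r of -0.22, as it did over all features (-0.23). The control enters the ratio and thus both axes.

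**Figure D4:**
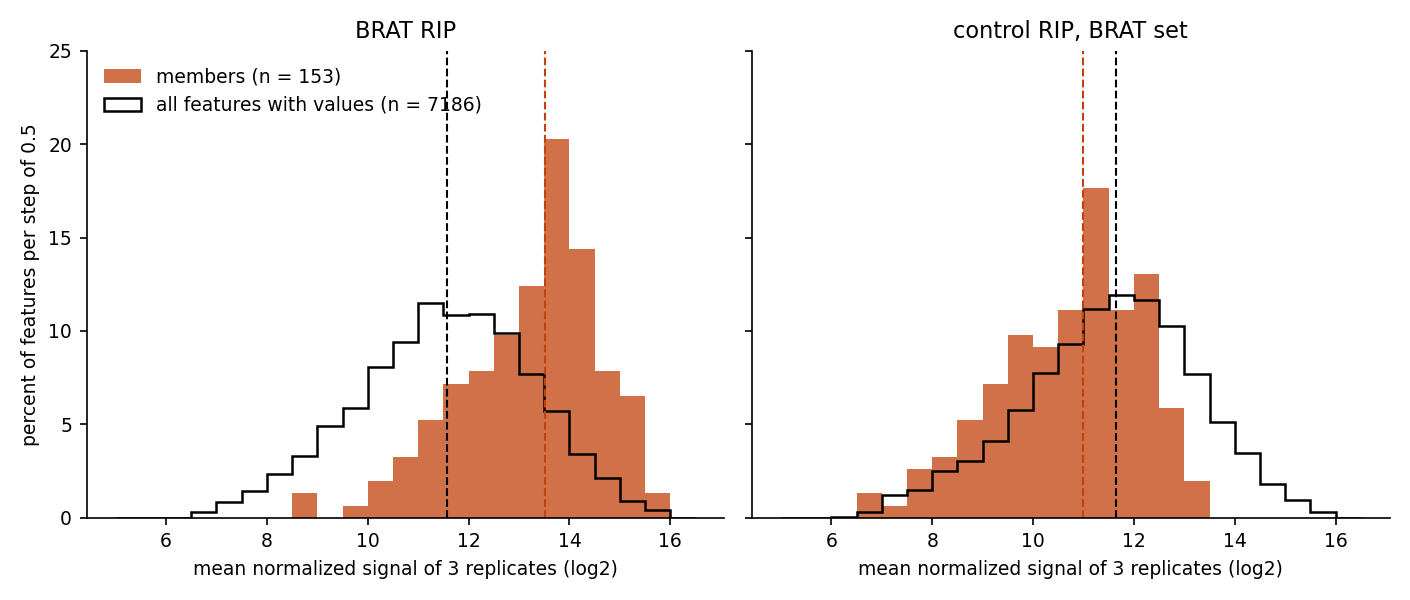
Distribution of the mean log2 signal of 3 replicates in the BRAT RIP (left) and in the control RIP of the BRAT set (right), as percent of features in steps of 0.5, for the 153 members (orange) and all 7186 features with values (black outline); dashed lines are medians. The medians of the members, 13.52 on the left and 10.99 on the right, lie on opposite sides of those of all features, 11.58 and 11.64. The rule sets a difference of at least 2 between the panels for every member.

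Of the 213 features that met the BRAT part of the rule, the 153 members made up 71.8%. Another 43 (20.2%) had a mean PUM ratio of 0.585 or more and 17 (7.98%) one of -0.585 or less. BRAT ratios were alike in the 3 classes, with medians of 2.35 in the members, 2.38 in the class above the window and 2.496 in the class below. The classes were ordered by control signal. The median in the control RIP of the BRAT set was 10.99 in the members, 9.20 in the class above and 12.45 in the class below, and the median BRAT RIP signal was 13.52, 11.87 and 14.89 in the same order. The control signal was thus lowest in the class above the window and highest in the class below. The classes are defined by the PUM ratio, so the order of that ratio across them is set by the rule. Within the members, PUM ratio and control signal correlated at r of -0.37. Over all features this was -0.27. The control preparations are part of both ratios, so no test was made. The median PUM ratios of replicates 1, 2 and 3 were -0.59, -0.54 and -1.67 in the class below the window and 0.94, 0.99 and 0.97 in the class above. The mean that sorts features into the classes includes replicate 3, so these values are not compared between classes. When the rule was turned round, to a mean PUM ratio of at least 2 with a BRAT ratio between -0.585 and 0.585, it found 26 features. This count is not compared with the 153, as fewer features were called at a fold threshold of 2 with PUM (282) than with BRAT (796).

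Membership at the limits turned on small differences. Just inside the BRAT limit were FBtr0089726 and FBtr0079642, with mean ratios of 2.001 and 2.006, and just outside were FBtr0074473 and FBtr0085609, with 1.999 and 1.983. At the upper PUM limit FBtr0081504 and FBtr0074231 were inside, with mean PUM ratios of 0.56 and 0.53, and FBtr0079492 and FBtr0080379 were outside, with 0.60 and 0.61. At the lower limit FBtr0088464 and FBtr0079712 were inside, both at -0.58, and FBtr0078094 and FBtr0072331 were outside, with -0.61 and -0.62. FBtr0078094 had PUM ratios of 0.19, -0.34 and -1.67, so its place outside rested on replicate 3. The requirement that all 3 BRAT ratios lie above 0 removed 1 feature, FBtr0290271. Its BRAT RIP signals were 13.00, 12.98 and 12.55, against 5.22, 12.63 and 13.73 in the control RIP, and the ratio of 7.78 in replicate 1 came from a single low control signal. Its mean PUM ratio of 2.68 also lay outside the window.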

How the data were processed

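RIP RNA of w1118 embryos was hybridized to custom NimbleGen arrays. By the study's methods an array took a Cy3-labeled and a Cy5-labeled sample together, and which samples shared an array was not given in the sources used here. The authors quantified images with NimbleScan, normalized by the RMA quantile method in ArrayStar, the BRAT RIPs with the controls and the PUM RIPs with the controls, summarized probes per transcript, and deposited log2 values. The log2 scale was taken from their range. Quantile normalization gives each column of a set one distribution, so ratios are relative to the bulk of features and total recovery is lost. An aligner or genome build does not apply, and the annotation release of the array was not given in the sources used here.

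Ratios were taken within replicate numbers, as the study's test was paired. Deviations from group means correlated between RIP and control of a number at 0.532, 0.297 and 0.457 (BRAT set) and 0.505, 0.322 and 0.356 (PUM set). Each pair exceeded 0.1, which was taken as pairing. The RIP and control of a number also carried the same dye, and the share of the dye in these correlations was not tested. Both comparisons were fitted across all 7186 features in limma 3.58.1 (R 4.3.3) with the replicate number as a block, two-sided, Benjamini-Hochberg adjusted, and called at an adjusted p under 0.05 and 1.5-fold. The fit was tested on simulated data. SAM, named in the methods, was not run. SDs are over 3 biological replicates.

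Members, lists and settings were chosen with earlier results of these data known. Features named are the 10 members with the highest BRAT ratios, the 5 with PUM ratios closest to 0, the 3 with the largest and the 3 with the smallest SD of BRAT ratios, and the 2 on each side of each limit. Named besides these are some of the pairs with consecutive identifiers, and FBtr0290271, which the requirement on single BRAT ratios removed. FBtr0071519 was added after its values were seen. Gene lists, cell type markers, motif searches and sequences could not be applied without gene names or transcript models for the members. Alternatives were centring, renormalization, other limits, a filter on dim features and leaving out replicates. Figures were drawn with matplotlib 3.10.9.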

Additional observations from a re-analysis of the deposited data

How the results depend on the processing

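The member count depended most on the limits of the rule, with 296 features at a BRAT limit of 1.5, 63 at 2.5 and 98 with a PUM window of 50% of its width. It was 170 with no lower PUM bound and 134 without the dimmest 10% of features. Leaving out a replicate number gave 123 to 155 members, of which 112 to 129 were among the 153. Renormalizing the features with values gave 152 members, 145 of them the same, and centring each replicate's ratios on their median gave 179, 151 of them the same. Centring raised the members' median BRAT ratio to 2.48, by construction, since the median over all features is below 0, and likewise raised each named BRAT ratio. It ranged from 2.33 to 2.41 when a replicate was left out. The members' median PUM ratio changed sign with the replicates used, from -0.06 without replicate 1 to 0.08 without replicate 3, within the spread of the replicates' medians. It was -0.096 after renormalizing the features with values. The median control signal was 10.83 to 10.99. Without the replicate pairing, limma called 1036 instead of 1376 features as higher with BRAT and 197 instead of 500 as higher with PUM. With a fold threshold of 2 these counts were 796 and 282, and with a replicate left out 1241 to 1378 and 99 to 429. Single probes were not examined for background or saturation, 3 replicates a group limit the precision, and replicate 3 differs from the others in dye as well as in preparation. Searches for BRAT and PUM motifs and the values of other transcripts of the same genes were not run.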
